A study of Mus musculus with 9 samples.

Results

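The genes described here are 10 genes of lipid storage and breakdown: Plin2, Plin3, Hilpda, Dgat1, Dgat2, Pnpla2, Abhd5, Lipe, Mgll and Lipa. They were chosen by symbol for what their proteins do in the lipid droplet, from 23413 genes in the count table, and all 10 were in the table and among the 11393 genes tested. Gene expression was measured by RNA-seq of polyA RNA from macrophages sorted from the livers of male C57BL/6 mice. All were 5 weeks old when their diet began and were kept on it for 8 weeks. The ND group (n = 2) was on normal diet, and the labels give it no treatment. The vehicle group (n = 3) received high-fat diet (HFD), with PEG3000 every 5 days from week 3. The DPI group (n = 4) was kept on the same diet and schedule and received DPI, diphenyleneiodonium, at 2 mg/kg in that vehicle. DPI is reported to activate the receptor GPR3 and also to inhibit NADPH oxidases. No group carried a transgene or a deletion. Whether the ND mice were injected with vehicle is not given in the sources used here, so the diet and any difference in injections cannot be told apart.

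A lipid droplet is a core of triglyceride and cholesteryl ester held inside a single layer of phospholipid, and perilipins coat its surface. DGAT enzymes add the last fatty acid to make triglyceride, and ATGL (encoded by Pnpla2), hormone-sensitive lipase (Lipe) and monoglyceride lipase (Mgll) remove the fatty acids again in that order. Lysosomal acid lipase (Lipa) does the same inside lysosomes, and macrophages that take up much lipid are known to fill with droplets and to produce more Plin2.

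Levels are given in CPM, the reads of a gene scaled to a common library size, with library sizes scaled by the TMM method. Library totals lay between 3534325 and 15585775 counts, and the ribosomal transcript Rn45s took 27.0% to 44.5% of them. The number 3 was taken as the smallest count that differs from none, which is 0.184 to 1.02 CPM depending on the library. The libraries held all 10 macrophage markers of a list, at a summed level of 15401 to 44578 CPM, whereas 8 Kupffer cell markers summed to only 5.30 to 78.3 CPM. Of the defining Kupffer cell genes, Marco had 1 count in all 9 libraries together and Clec4f had none in 3 libraries, so the cells are called sorted F4/80+CD11b+ liver macrophages here. The adipocyte genes Adipoq, Lep and Cfd had no counts in any library. The ND libraries were unlike each other, with a Spearman correlation across all tested genes of 0.740, the lowest of the 36 pairs of libraries. ND replicate 1 was the more distant, at 0.740 to 0.768 with every other library. ND replicate 2 was at 0.794 to 0.838 with the HFD libraries. These are bulk libraries, in which fewer cells of a type and less RNA per cell cannot be told apart.

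Plin2, Abhd5 and Hilpda had higher levels in every vehicle library than in either ND library, and Dgat2 had lower levels, so that 4 of 10 genes were apart where 27.5% of all genes tested were. DPI and vehicle libraries overlapped for all 10 genes, and 5.85% of all genes were apart. The plot of the genes by library shows these values, and the sequences upstream of the 3 higher genes are given first. For each, the 250 bases before the start in the RefSeq promoter table of build GRCm38.p6 are printed 5′ to 3′ on the strand of the gene, with capitals for matches to 2 short motifs. These motifs are AGGTCA, the core that nuclear receptors such as the PPARs bind (which appears as TGACCT when it lies on the other strand), and TGACG, the core of the cAMP response element (CGTCA on the other strand). Positions count back from the start, where -1 is the last base printed, and give the first base of the match. The sequences come from chr4:86670060-86670309 (minus strand), chr9:122351366-122351615 (plus strand) and chr6:29272238-29272487 (plus strand).
Plin2: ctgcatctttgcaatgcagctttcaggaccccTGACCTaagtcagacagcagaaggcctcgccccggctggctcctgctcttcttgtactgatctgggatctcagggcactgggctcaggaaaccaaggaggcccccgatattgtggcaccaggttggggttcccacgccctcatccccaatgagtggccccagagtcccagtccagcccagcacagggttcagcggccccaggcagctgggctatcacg
Abhd5: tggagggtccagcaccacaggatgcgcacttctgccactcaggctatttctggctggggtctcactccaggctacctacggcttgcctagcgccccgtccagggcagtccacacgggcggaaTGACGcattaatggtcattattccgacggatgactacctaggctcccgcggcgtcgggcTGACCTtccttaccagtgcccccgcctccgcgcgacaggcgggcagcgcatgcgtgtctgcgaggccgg
Hilpda: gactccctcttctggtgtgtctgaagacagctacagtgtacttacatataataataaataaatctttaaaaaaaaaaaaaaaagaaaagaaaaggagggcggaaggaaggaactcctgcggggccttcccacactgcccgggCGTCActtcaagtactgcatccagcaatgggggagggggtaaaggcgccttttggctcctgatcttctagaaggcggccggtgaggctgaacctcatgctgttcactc
The Plin2 window held AGGTCA at -218, the Abhd5 window held it at -69 together with TGACG at -128, and the Hilpda window held TGACG at -108. Among 32851 promoter windows of the same length, 14.0% held AGGTCA and 17.8% held TGACG on either strand, so such matches are common. The core of the hypoxia response element, ACGTG, and the AP-1 motif TGANTCA were in 16.6% and 6.75% of these windows and in none of the 3 printed ones. The window of a further Hilpda start in the table, chr6:29272376-29272625, which reaches into the gene as annotated, held ACGTG at -43 and TGANTCA at -128. Of the 10 genes, 8 were in the promoter table, and Dgat1 and Dgat2 were not.

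**Figure D1:**
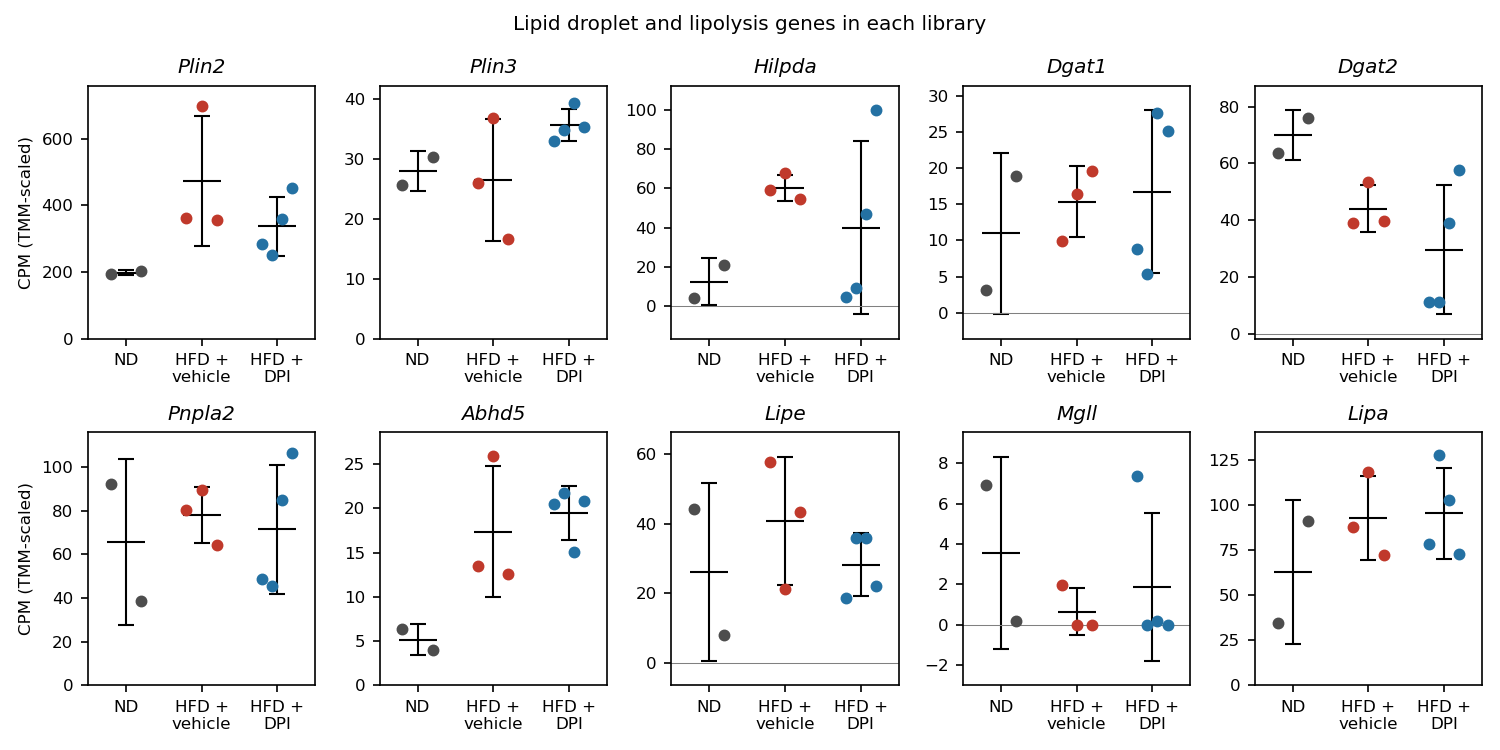
Level of each of the 10 genes in CPM, with 1 point per library and the mean ± SD of each group as a bar, for 2 ND, 3 HFD vehicle and 4 HFD DPI libraries (the lower end of some SD bars passes below 0, which no level can). Vehicle points lie above both ND points for Plin2, Abhd5 and Hilpda and below them for Dgat2, and the DPI points of Hilpda run from 4.41 to 99.7 CPM.

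Plin2 (chr4:86648386-86670060, GRCm38), the perilipin that coats droplets in most cells outside fat tissue, had the highest level per length of the 10. It measured 193 and 203 CPM in the ND libraries and 362, 698 and 357 CPM in the vehicle libraries. The DPI libraries held 284, 252, 359 and 453 CPM. Each HFD library was above both ND libraries, while DPI and vehicle libraries overlapped. The mean was 472 ± 195 CPM (SD, n = 3) with vehicle against 198 ± 6.64 CPM (SD, n = 2) on normal diet, a ratio of 2.38. The fitted log2 fold change was 1.25 (SE 0.37), with an unadjusted p = 0.00481 and, by the Benjamini-Hochberg method over all genes tested, an adjusted p = 0.227 in the quasi-likelihood test of edgeR. Without vehicle replicate 2, the highest library, it was 0.86 (unadjusted p = 0.0232, adjusted p = 0.353 in edgeR), under a 2-fold change.

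Under DPI, the mean of Plin2 was 337 ± 89.5 CPM (SD, n = 4). The log2 difference from vehicle was -0.49 (SE 0.30), and its 95% interval ran from -1.12 to 0.15. It was -0.092 without vehicle replicate 2 and -0.66 without DPI replicate 4. DPI replicates 1 and 2 were below all 3 vehicle libraries, and replicates 3 and 4 were inside their range.

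Plin3 (chr17:56277476-56292873), a perilipin that also exists free in the cytosol and covers small new droplets, did not share the pattern of Plin2. Its level was 25.6 and 30.4 CPM on normal diet and 25.9, 36.9 and 16.6 CPM with vehicle. The DPI libraries measured 33.1, 34.9, 39.5 and 35.4 CPM, all above the ND libraries and close together, at 35.7 ± 2.70 CPM (SD, n = 4). Vehicle libraries spread over a 2.23-fold range and held both the lowest and the second highest level of the 9 libraries. The log2 fold change was -0.08 (SE 0.42) for vehicle against ND and 0.43 (SE 0.36, 95% interval -0.34 to 1.19) for DPI against vehicle. The second was 0.75 without vehicle replicate 2 and 0.17 without vehicle replicate 3.

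Hilpda (chr6:29272488-29275446) encodes a small droplet protein that inhibits ATGL and is known as a target of hypoxia and of fatty acids. It measured 4.00 and 21.1 CPM on normal diet and 59.2, 67.5 and 54.4 CPM with vehicle. The DPI libraries split, with 4.41 and 9.16 CPM in replicates 1 and 2 and 46.9 and 99.7 CPM in replicates 3 and 4. The vehicle group was the most even, at 60.4 ± 6.64 CPM (SD, n = 3), and DPI the most uneven, at 40.0 ± 44.1 CPM (SD, n = 4), a 22.6-fold range between its lowest and highest library. Vehicle was 4.82 times ND by the means, with a log2 fold change of 2.27 (SE 1.06, unadjusted p = 0.0512, adjusted p = 0.388 in edgeR). It was 1.53 without ND replicate 1 (adjusted p = 0.622 in edgeR) and 3.94 without ND replicate 2 (adjusted p = 0.123 in edgeR). In these and all later fits with a single ND library, that library is assumed to vary like the other groups. For DPI against vehicle it was -0.59 (SE 0.80), with a 95% interval from -2.30 to 1.13. Leaving out DPI replicate 4 moved that difference to -1.59, and leaving out DPI replicate 1 moved it to -0.21.

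The 2 enzymes of triglyceride synthesis differed from each other. Dgat2 (chr7:99153658-99182719), which works at the droplet and uses newly made fatty acids, held 63.7 and 76.1 CPM on normal diet and 39.0, 53.6 and 39.6 CPM with vehicle. DPI libraries measured 11.2, 11.2, 38.9 and 57.6 CPM. All 7 HFD libraries were below both ND libraries, and the lowest 2 were DPI replicates 1 and 2. The ratio of means was 0.631 for vehicle against ND and 0.425 for DPI against ND. The log2 fold change was -0.66 (SE 0.60, adjusted p = 0.691 in edgeR) for vehicle against ND and -1.23 (SE 0.56, unadjusted p = 0.0467, adjusted p = 0.460 in edgeR) for DPI against ND. The DPI value no longer passed p under 0.05 when any single ND or vehicle library, DPI replicate 1 or DPI replicate 2 was left out (log2 fold change -1.34 to -0.93 in those fits).

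Dgat1 (chr15:76502015-76511953), the enzyme in the endoplasmic reticulum that also re-esterifies fatty acids from lipolysis, was at 3.09 and 18.8 CPM on normal diet. Vehicle libraries had 9.97, 16.5 and 19.5 CPM, and DPI libraries had 8.87, 5.43, 27.6 and 25.1 CPM. The ND libraries alone spanned a 6.09-fold range, and 2 DPI libraries lay below all vehicle libraries and 2 above them. The log2 fold change was 0.48 (SE 0.83) for vehicle against ND and 0.13 (SE 0.68, 95% interval -1.34 to 1.60) for DPI against vehicle. Direction against ND turned on 1 library, since the vehicle value was -0.29 without ND replicate 1 and 2.33 without ND replicate 2.

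Abhd5 (chr9:122351608-122381524) encodes CGI-58, the coactivator that ATGL needs for full activity. Its level was 6.37 and 3.92 CPM on normal diet, 13.5, 25.9 and 12.6 CPM with vehicle, and 20.5, 21.7, 15.01 and 20.8 CPM with DPI. Each of the 7 HFD libraries was above both ND libraries, and vehicle and DPI overlapped. In edgeR, the log2 fold change was 1.75 (SE 0.59, unadjusted p = 0.0105, adjusted p = 0.275) for vehicle against ND. For DPI against ND it was 1.92 (SE 0.58, unadjusted p = 0.00519, adjusted p = 0.287 in edgeR). The means were 3.37 and 3.79 times that of ND. The vehicle value had an unadjusted p = 0.0523 and an adjusted p = 0.236 in edgeR without ND replicate 2 (log2 fold change 1.48). An annotated antisense gene, A730085K08Rik, overlaps Abhd5 and had no counts.

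Pnpla2 (chr7:141455198-141460743), which encodes ATGL, the lipase of the first step, was detected at overlapping levels in all groups. ND libraries had 92.6 and 38.6 CPM, vehicle libraries had 80.5, 89.6 and 64.3 CPM, and DPI libraries had 48.8, 45.4, 85.2 and 107 CPM. The lowest and the second highest level of the 9 were the ND libraries. The log2 fold change was 0.25 (SE 0.46) for vehicle against ND and -0.13 (SE 0.38, 95% interval -0.94 to 0.69) for DPI against vehicle. The coactivator Abhd5 was thus apart between ND and HFD libraries, and its lipase Pnpla2 overlapped.

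Lipe (chr7:25379527-25398710), hormone-sensitive lipase, which takes diglyceride and cholesteryl ester, was at 44.2 and 8.21 CPM on normal diet and 57.6, 21.2 and 43.3 CPM with vehicle. With DPI it was at 18.7, 35.9, 35.9 and 22.2 CPM. ND libraries spanned a 5.39-fold range that covered all but 1 of the other libraries. The log2 fold change was 0.63 (SE 0.64) for vehicle against ND and -0.53 (SE 0.52, 95% interval -1.66 to 0.59) for DPI against vehicle. The first was 2.31 without ND replicate 1 and -0.10 without ND replicate 2. The second was -0.20 without vehicle replicate 1 and -0.85 without vehicle replicate 2. An antisense gene, 4732471J01Rik, overlaps Lipe and had up to 126 counts, and a strand setting of the counting is not given in the sources used here.

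Mgll (chr6:88724412-88828360), which cleaves the last fatty acid from monoglyceride, was close to absent in most libraries. Counts were 38 and 1 on normal diet, 9, 0 and 0 with vehicle, and 120, 0, 1 and 0 with DPI. ND replicate 1 (6.91 CPM) and DPI replicate 1 (7.34 CPM) were the only libraries above 3 counts besides vehicle replicate 1 (1.99 CPM). The log2 fold changes have SEs above 2 and no fold is read from them.

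Lipa (chr19:34492318-34527474), the lysosomal lipase that frees cholesterol and fatty acids from lipoproteins and engulfed droplets, was at 34.6 and 91.0 CPM on normal diet. Vehicle libraries had 87.8, 118 and 72.0 CPM, and DPI libraries had 78.2, 128, 103 and 72.7 CPM. ND replicate 1 was the lowest of the 9 libraries, and ND replicate 2 lay within the HFD range. The log2 fold change was 0.56 (SE 0.43, adjusted p = 0.614 in edgeR) for vehicle against ND and 0.04 (SE 0.35, 95% interval -0.73 to 0.80) for DPI against vehicle. The first rested on ND replicate 1, since it was 0.039 without that library (adjusted p = 0.996 in edgeR) and 1.46 without ND replicate 2 (unadjusted p = 0.0113, adjusted p = 0.110 in edgeR). ND replicate 1 was also the lowest library for T and NK cell markers (9 of 10 in the table), whose sum was 67.7 CPM in it and 214 to 404 CPM in the other libraries, and their part in this difference was not tested.

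**Figure D2:**
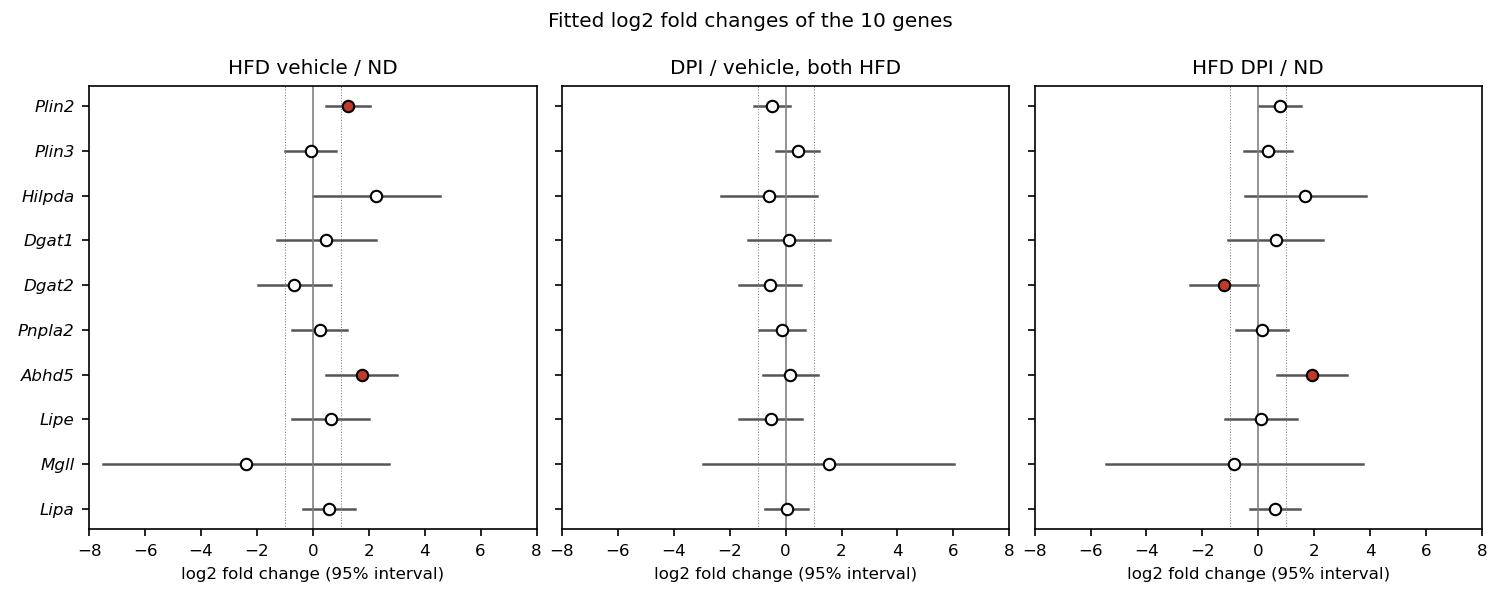
Fitted log2 fold changes of the 10 genes with 95% intervals (horizontal axis) in the 3 comparisons, with dotted lines at a 2-fold change. For HFD vehicle against ND the intervals of Plin2 and Abhd5 exclude 0, for DPI against vehicle all 10 intervals include 0, and the interval of Mgll is the widest in each panel.

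Taking the 10 genes as a group, HFD vehicle against ND gave 7 higher and 3 lower fitted values. Their median was 0.52 on the log2 scale, beside 0.03 over all genes tested. No member passed an adjusted p under 0.05 in edgeR, where 0.0614% of all genes did. An unadjusted p under 0.05 was reached by 2 members and by 1479 genes in all, which is 13% of those tested. DESeq2 called 319 genes after adjustment, 1 of them a member (Plin2, adjusted p = 0.0364). By the threshold used in the study, an unadjusted p under 0.05 with at least a 2-fold change, 2 members were higher (Plin2 and Abhd5), against 7.03% of all genes. None was lower, against 4.63% of all genes. Libraries of the groups did not overlap for 4 of 10 members (Plin2, Abhd5, Hilpda and Dgat2), which is to be read beside 27.5% of all genes.

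DPI against vehicle gave 5 members higher and 5 lower, and the median of the 10 was -0.05 on the log2 scale beside 0.04 over all genes. In edgeR 0.0% of all genes and none of the members passed an adjusted p under 0.05, and 470 genes (4.13%), none of them a member, had an unadjusted p under 0.05. The smallest unadjusted p of a member in edgeR was that of Plin2 (unadjusted p = 0.124, adjusted p = 0.999 in edgeR). DESeq2 called 2 genes and no member after adjustment. The study's threshold called 2.84% of all genes in either direction, and no member. Groups were apart for 5.85% of all genes and for 0 of 10 members. Apart from that of Mgll, the widest 95% interval was that of Hilpda, which included a 4-fold lower level.

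DPI against ND, which shares the ND libraries with the first comparison and the DPI libraries with the second, gave 8 members higher and 2 lower (median log2 fold change 0.47, beside 0.04 over all genes). No member passed an adjusted p under 0.05 in edgeR (0.00878% of all genes did). An unadjusted p under 0.05 was reached by 3 members and by 10.7% of all genes, and DESeq2 called 219 genes, 1 of them a member (Abhd5, adjusted p = 0.0471). At the study's threshold 1 member was higher (Abhd5), against 6.24% of all genes, and 1 was lower (Dgat2), against 3.05%. Plin2 had a log2 fold change of 0.77 (SE 0.35, unadjusted p = 0.0464, adjusted p = 0.460 in edgeR), under 2-fold. Plin2, Plin3, Abhd5 and Dgat2 did not overlap between the groups, 4 of 10 members beside 20.2% of all genes.

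Ordered by level per length, in CPM per kilobase of merged exons averaged over the 9 libraries, Plin2 came first at 100.002. It was followed by Hilpda (36.9), Pnpla2 (24.0), Dgat2 (14.1) and Lipa (12.9). Plin3 (8.17), Lipe (5.42), Dgat1 (4.90), Abhd5 (2.62) and Mgll (0.364) had the lower levels per kilobase. Plin2 was above Hilpda in 9 of 9 libraries, Pnpla2 above Dgat2 in 8 of 9, Lipa above Plin3 in 8 of 9 and Abhd5 above Mgll in 8 of 9. The other neighbours changed places, with Hilpda above Pnpla2 in 6 of 9 and Dgat2 above Lipa in 4 of 9. With the length of the longest transcript in place of merged exons, Lipa passed Dgat2 and Lipe passed Plin3.

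The order differed by group mainly through Hilpda and Dgat2. On normal diet Dgat2 was second by the mean at 22.7 ± 2.85 CPM per kilobase (SD, n = 2) and Hilpda was at 11.4 ± 10.9, below Pnpla2. In single ND libraries, Dgat2 was above Pnpla2 in 1 of 2 and Pnpla2 above Hilpda in 1 of 2. With vehicle Hilpda was second at 54.7 ± 6.02 CPM per kilobase (SD, n = 3), above Pnpla2 in all 3 libraries and apart from it, and Dgat2 was at 14.3 ± 2.68, below Pnpla2. With DPI Hilpda was again second by the mean, at 36.3 ± 39.9 CPM per kilobase (SD, n = 4), but above Pnpla2 in only 2 of 4 libraries.

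**Figure D3:**
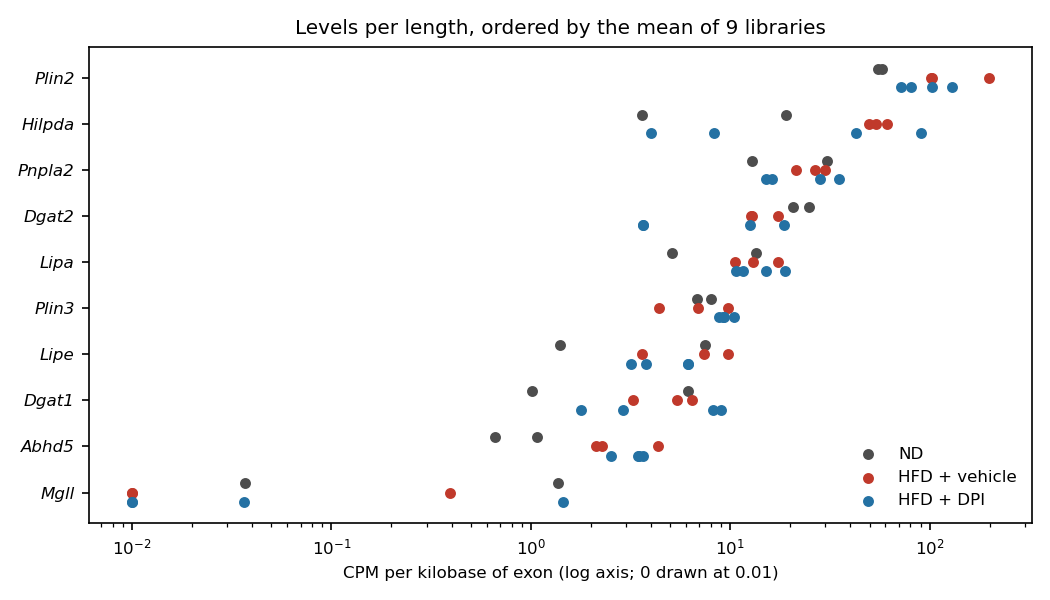
Level of each gene in CPM per kilobase of merged exons (log axis, libraries with no counts drawn at 0.01), with 1 point per library in the colour of its group and genes ordered by the mean of the 9 libraries. Plin2 is at the top, from 55.0 to 199 CPM per kilobase, Hilpda is spread from 3.63 to 90.3, and Mgll is at 0 in 4 libraries.

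Within the DPI group the libraries split in a way that several of the 10 genes shared. For 6 of 10 (Plin2, Plin3, Pnpla2, Dgat1, Dgat2 and Hilpda) the 2 highest of the 4 levels were in replicates 3 and 4. The share of all genes tested that did so was not counted, so the split is not read as particular to these genes. Lipa and Lipe had theirs in replicates 2 and 3, and Abhd5 in replicates 2 and 4. The split was largest for Hilpda, Dgat1 and Dgat2 and small for Plin3.

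The summed level of neutrophil markers moved with this split. Of a list of 9, 8 were in the table, and their sum was 954, 824, 3710 and 5326 CPM in DPI replicates 1 to 4. It was 1240 and 3154 CPM in the ND libraries and 2388, 3223 and 3740 CPM in the vehicle libraries. The 3 libraries with the lowest sums, ND replicate 1 and DPI replicates 1 and 2, were also the 3 lowest for Hilpda and for Dgat1, and DPI replicate 4 had the highest sum and the highest Hilpda and Pnpla2 levels. S100a8 and S100a9 had the 2 highest levels of the 8 markers except in ND replicate 1 and DPI replicate 1. In DPI replicate 1 they were at 157 and 150 CPM, below Mmp8 and Ngp (160 CPM). Of the 8 markers, 6 had their 2 highest DPI levels in replicates 3 and 4, and Camp and Mmp8 did not (Mmp8 was highest in DPI replicate 1, at 289 CPM). Only S100a8, S100a9, Retnlg and Cxcr2 were lowest in the same 3 libraries as the sum. Abhd5 did not follow the sum, since DPI replicates 1 and 2 had 20.5 and 21.7 CPM. The sort excluded cells with high Gr1, an antigen of neutrophils. B cell markers (5 of 6 in the table) were also lowest in these 3 libraries, at 14.9, 38.1 and 15.6 CPM, and highest in DPI replicate 4, at 404 CPM. Eosinophil markers summed to at most 3.26 CPM in the ND and vehicle libraries and to 110, 111, 0.371 and 65.9 CPM in the DPI libraries. The part of these cells in the levels of the 10 genes was not tested.

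**Figure D4:**
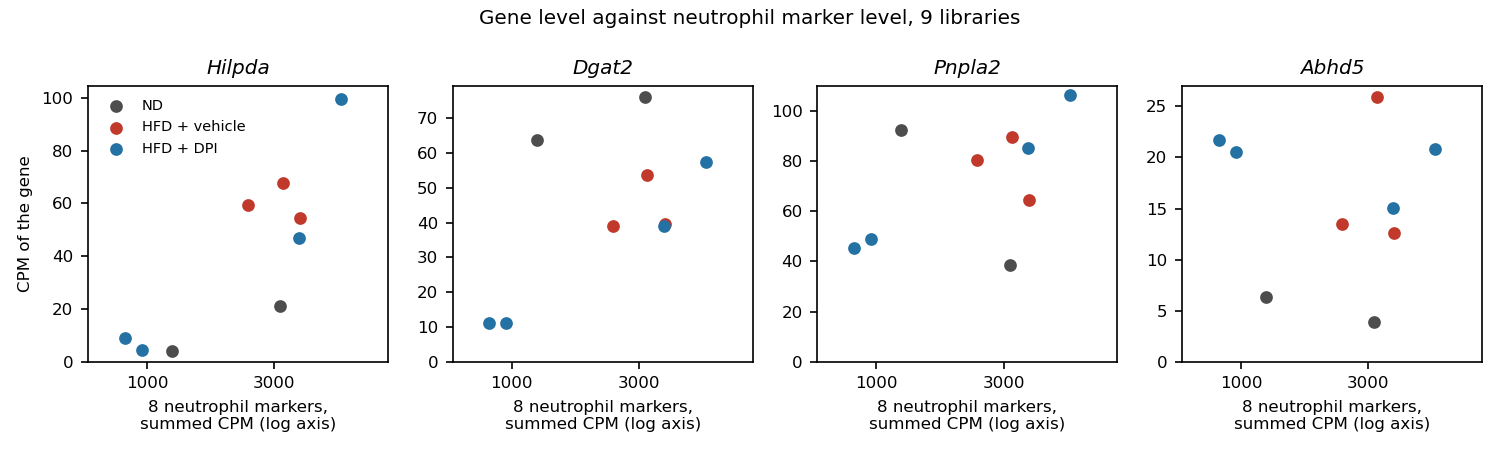
CPM of Hilpda, Dgat2, Pnpla2 and Abhd5 (vertical axes) against the summed CPM of 8 neutrophil markers (horizontal log axis), with 1 point per library coloured by group. DPI replicates 1 and 2 lie at the left with Dgat2 at 11.2 and 11.2 CPM, and DPI replicate 4 lies at the right with Hilpda at 99.7 CPM, whereas Abhd5 is lowest in the ND libraries at both low and high marker levels.

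Endothelial, hepatocyte, B cell, monocyte and eosinophil markers did not overlap between ND and vehicle libraries. The 8 sinusoidal endothelial markers summed to 123 and 224 CPM in the ND libraries and to 12.9 to 13.8 CPM in the vehicle libraries, and with DPI they were at 171, 88.2, 4.26 and 28.9 CPM. The 10 hepatocyte markers, of which 1 had no counts in any library, were at 316 to 504 CPM in ND, 154 to 198 CPM with vehicle and 192 to 342 CPM with DPI. Much of that sum was Trf, and the other 9 hepatocyte markers were at 132 and 292 CPM in the ND libraries, at 13.6 to 66.7 CPM with vehicle and at 31.8 to 85.8 CPM with DPI. Both sums were higher in each ND library than in any vehicle library, as was Dgat2. The B cell markers went the other way, at 14.9 and 69.0 CPM in the ND libraries and 93.3, 179 and 136 CPM with vehicle, as did Plin2, Abhd5 and Hilpda. The 6 monocyte markers were also higher with vehicle, by little, at 4808, 4093 and 4820 CPM against 3942 and 4067 CPM in the ND libraries. The 6 eosinophil markers were near 0 in both groups, at 1.99, 3.26 and 0.742 CPM with vehicle and at 0 and 0.186 CPM in the ND libraries. The part of these markers in the differences between ND and vehicle was not tested.

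The genes whose log2 CPM followed a member most closely over the 9 libraries were found by Pearson's r among all genes tested, as a description, since all genes of a library share its depth and its cell makeup, and both differ between the libraries. For Plin2 these were Fth1 (r = 0.961), the heavy chain of the iron store ferritin, the phagosomal metal transporter Slc11a1 (r = 0.954) and Chpt1 (r = 0.937), a phosphatidylcholine synthesis enzyme. For Hilpda they were Adam8 (r = 0.996), Srgn (r = 0.981), which encodes the granule proteoglycan serglycin, and Hdc (r = 0.980), the histamine-making enzyme. For Pnpla2 they were Klf13 (r = 0.955), Ate1 (r = 0.951) and Klf9 (r = 0.936). For Lipa they were Coa6 (r = 0.966), Agpat5 (r = 0.962) and Vps16 (r = 0.957). Some of these values rest partly on libraries near the floor. Chpt1 had no counts in either ND library and 1 in DPI replicate 2, and in ND replicate 1 Coa6 had 0 and Vps16 had 4. Among the 10 genes themselves the closest pairs were Dgat1 with Hilpda (r = 0.80, Spearman's rho 0.65) and Plin2 with Hilpda (r = 0.75, rho 0.90), also over 9 libraries. Over the 7 HFD libraries other pairs were closer, namely Dgat2 with Hilpda (r = 0.98, against 0.47 over all 9), Pnpla2 with Dgat2 (r = 0.94) and Pnpla2 with Hilpda (r = 0.91).

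Another 59 genes of lipid storage and breakdown, in 5 lists, gave the setting for these 10. Of them 44 were tested, and none passed an adjusted p under 0.05 in edgeR in any comparison, while 7, 1 and 5 had an unadjusted p under 0.05 for vehicle against ND, DPI against vehicle and DPI against ND. The shares over all genes were 13%, 4.13% and 10.7%. DESeq2 called 1 of them after adjustment for vehicle against ND (Lpin1) and 0 in the other comparisons. For vehicle against ND, 4 of the 44 were higher and 3 lower by the study's threshold, against 7.03% and 4.63% of all genes. The median log2 fold change over the 44 was 0.19, beside 0.03 over all genes.

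In the list of droplet coat and formation, 8 of 16 genes were tested and 1 was lower in vehicle against ND. This was Tmem159, also called Ldaf1, a partner of seipin where droplets form. It averaged 13.9 ± 4.81 CPM in ND, 2.18 ± 1.65 CPM in vehicle and 7.59 ± 2.89 CPM in DPI libraries (SD, n = 2, 3 and 4). Its log2 fold change was -2.66 (SE 0.84, unadjusted p = 0.00713, adjusted p = 0.253 in edgeR) for vehicle against ND. It was also the only gene of the 44 past the study's threshold for DPI against vehicle, at 1.79 (SE 0.74, unadjusted p = 0.0312, adjusted p = 0.999 in edgeR). The fat cell genes Plin1 and Cidec had no counts in any library.

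In fatty acid activation and glycerolipid synthesis, 14 of 18 genes were tested, and 2 were higher and none lower for vehicle against ND. Lpin1, the phosphatidate phosphatase that supplies diglyceride to the DGAT enzymes, averaged 2.11 ± 0.353 CPM in ND, 13.7 ± 1.77 CPM in vehicle and 9.01 ± 3.41 CPM in DPI libraries (SD, n = 2, 3 and 4). Its log2 fold change against ND was 2.69 (SE 0.76, unadjusted p = 0.00332, adjusted p = 0.199 in edgeR) with vehicle and 2.08 (SE 0.72, unadjusted p = 0.0120, adjusted p = 0.367 in edgeR) with DPI. Acsl3, an acyl-CoA synthetase of new droplets, had no counts in ND and few elsewhere. Vehicle libraries had 5, 10 and 2 counts of it, whereas DPI libraries had 6, 1, 14 and 61. Against a floor of 3 counts per ND library (0.559 CPM), the means were at least 2.03-fold higher with vehicle and at least 4.25-fold higher with DPI. Vehicle replicate 3 and DPI replicates 1 and 2 were themselves below the floor, and the bounds were 1.43 without vehicle replicate 2 and 1.97 without DPI replicate 4. Agpat2, which makes phosphatidic acid, passed the study's threshold only for DPI against ND, at a log2 fold change of 1.98 (SE 0.89, unadjusted p = 0.0433, adjusted p = 0.457 in edgeR).

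In the list of lipolysis, its control and fatty acid binding, 8 of 10 genes were tested, with 1 higher and 1 lower for vehicle against ND. Angptl4, the secreted inhibitor of lipoprotein lipase, had no counts in ND, 0, 12 and 9 counts with vehicle, and 102, 5, 16 and 4 counts with DPI. Against the same floor, the means were at least 2.62-fold higher with vehicle and at least 5.05-fold higher with DPI. Vehicle replicate 1 and DPI replicate 4 were below the floor, and the bounds were 1.94 without vehicle replicate 3 and 3.02 without DPI replicate 1. Ddhd2, a triglyceride hydrolase known from neurons, was lower with vehicle at a log2 fold change of -1.16 (SE 0.50, unadjusted p = 0.0375, adjusted p = 0.358 in edgeR). G0s2, an inhibitor of ATGL named here after its values were seen, was at 110.2 ± 75.7 CPM in ND, 111 ± 20.8 CPM in vehicle and 50.9 ± 39.6 CPM in DPI libraries (SD, n = 2, 3 and 4). Its log2 fold change for DPI against vehicle was -1.12 (SE 0.55, unadjusted p = 0.0633, adjusted p = 0.999 in edgeR).

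None of the 5 genes of cholesteryl ester turnover passed the study's threshold in any comparison. Of the regulators, 9 of 10 were tested. Mitf, of the family of transcription factors that drive lysosomal genes, was at 5.78 ± 1.85 CPM (SD, n = 2) in ND and 19.2 ± 4.90 CPM (SD, n = 3) with vehicle (log2 fold change 1.73, SE 0.79, unadjusted p = 0.0470, adjusted p = 0.380 in edgeR). Rxra, the partner of the PPAR receptors, was at 30.2 ± 23.7 CPM (SD, n = 2) in ND and 8.52 ± 2.67 CPM (SD, n = 3) with vehicle. Its log2 fold change against ND was -1.83 (SE 0.83, unadjusted p = 0.0451, adjusted p = 0.375 in edgeR) with vehicle and -1.89 (SE 0.76, unadjusted p = 0.0271, adjusted p = 0.419 in edgeR) with DPI.

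**Figure D5:**
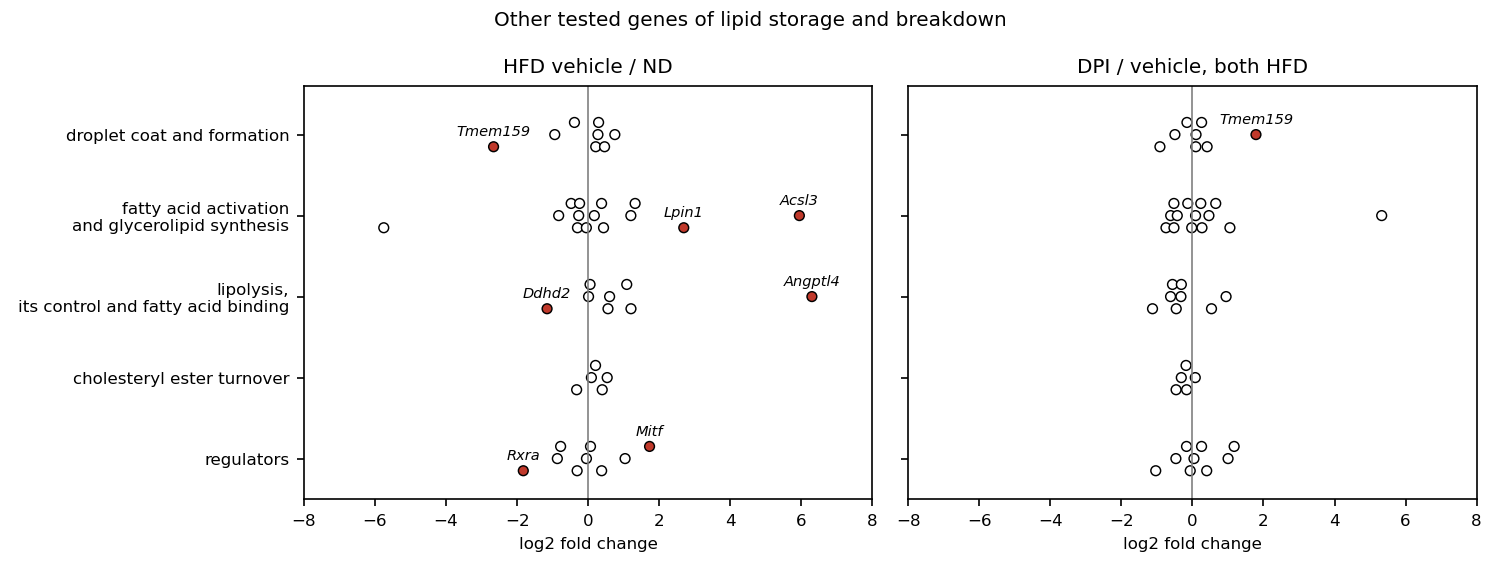
Log2 fold changes (horizontal axis) of the 44 tested genes in the 5 lists, 1 point per gene, for HFD vehicle against ND and for DPI against vehicle, with filled points for genes past the study's threshold. There are 7 filled points in the first panel and 1, Tmem159, in the second, and the fitted values of Acsl3 and Angptl4 (no counts in ND) in the first panel and of Mogat2 (no counts with vehicle) in both panels depend on the prior count.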

How the data were processed

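RNA from sorted liver macrophages was sequenced in 9 libraries, each named in the labels by 1 numbered mouse. The study gives more mice per group than there are libraries, and how the mice map to libraries, pooled or not, is not given in the sources used here. The authors aligned reads to mm10 and deposited raw counts per gene without normalization. Their methods name bowtie2 and RSEM, whereas the submitters' processing notes name TopHat2 and edgeR. The labels also give a treatment of 500 nM for 24 h, while the design text and the methods give 2 mg/kg in mice, which was followed here. Groups were taken from the labels.

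Differential expression across the 3 groups was analysed in R 4.3.3 with the quasi-likelihood functions of edgeR 4.0.16, after filterByExpr and TMM, and p-values were corrected for 11393 genes (Benjamini-Hochberg). The common biological coefficient of variation was 0.65. The threshold of the study is p under 0.05, unadjusted, and a change of at least 2-fold. P-values and the 95% intervals of fold changes measure the spread between these libraries, and floors (3 counts) cover counting error only. The script was tested on simulated data. Levels are TMM-scaled CPM, and gene lengths and positions come from GENCODE gene models of GRCm38.

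The 10 genes and all lists were chosen with earlier results of these data known. Named genes are the 10 genes, the listed pathway genes with an unadjusted p under 0.05 (at most 4 per list and comparison, smallest p first), and the 3 genes most correlated with each of Plin2, Hilpda, Pnpla2 and Lipa. G0s2 did not meet this rule and was added after its values were seen. Alternatives were RLE factors, library size alone, no filter, DESeq2 1.42.0, 2 groups only, a replicate block, Rn45s left out, thinning to the smallest library and leaving out each library.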

Additional observations from a re-analysis of the deposited data

Results flagged for a closer look

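Of the 10 genes, Mgll had a library that stood apart from the other 3 of the DPI group. It was at 7.34 CPM in DPI replicate 1, the most deeply sequenced library, and at 0.19 CPM or less in the others. The gap to the nearest other value was 0.975 of the range of the group, above Dixon's 95% critical value of 0.829 for 4 samples. All 10 genes were looked at in this way in the DPI group only, since the other groups had fewer than 4 libraries, and chance alone marks about 1 in 20 groups. Mgll also stood high in ND replicate 1, at 6.91 CPM against 0.19 CPM in ND replicate 2.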

How the results depend on the processing

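With 2, 3 and 4 libraries per group and totals from 3534325 counts, most of the differences within 2-fold could not be resolved, and ND rests on 2 unlike libraries. Of the log2 fold changes of the 10 genes, 194 kept their direction and their side of the study's threshold under RLE factors, library size alone, no filter, DESeq2, 2 groups only, Rn45s left out and thinning, 4 turned direction, 4 newly passed and 3 no longer passed. Under the replicate block these were 18, 5, 3 and 2.

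With library size alone in place of TMM factors, the median of all genes moved from 0.03 to -0.26 for vehicle against ND, from 0.04 to 0.12 for DPI against vehicle and from 0.04 to -0.17 for DPI against ND. Under it the log2 fold change turned to -0.039 for Pnpla2 in vehicle against ND, and to -0.077 for Pnpla2 and -0.17 for Lipe in DPI against ND. That of Plin2 for vehicle against ND was 0.99, just under 2-fold. Thinning all libraries to the smallest total turned Plin3 to 0.083 for vehicle against ND. Hilpda for vehicle against ND passed the study's threshold with no filter, with 2 groups only, with the replicate block, without Rn45s and after thinning, and also without ND replicate 2 or without DPI replicate 1, 2 or 4. Mgll got no p from DESeq2.

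The replicate numbers do not pair the libraries, since deviations of same-numbered libraries correlated at -0.02 to 0.08. A fit with the replicate number as a block, over the libraries with a shared number only (so without DPI replicate 4 and, against ND, without replicate 3), turned Plin3 to 0.17 in vehicle against ND, Dgat1 to -0.40 in DPI against vehicle, and Pnpla2 to -0.31, Dgat1 to -0.095 and Hilpda to -0.49 in DPI against ND. Under the block Hilpda (-2.33) and Dgat2 (-1.38) passed the study's threshold in DPI against vehicle, and Abhd5 did not against ND (1.92 with vehicle and 2.11 with DPI).

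The number of the 10 genes past the study's threshold for vehicle against ND, 2 as reported, was 1 with library size alone and 1 to 4 when 1 library was left out. For DPI against vehicle, 0 as reported, it was 2 under the block and 0 to 1 with a library left out (Dgat2 at -1.11 without DPI replicate 4). For DPI against ND, 2 as reported, it was 1 with 2 groups only, under the block and without Rn45s, and 1 to 4 with a library left out. None of the 10 passed an adjusted p under 0.05 in edgeR in any fit, and DESeq2 called 1, 0 and 1 in the 3 comparisons.

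Over all genes, the adjusted calls for vehicle against ND, 7 as reported, were 1 with library size alone, 52 with no filter, 319 in DESeq2, 0 with 2 groups only, 0 under the block, 15 after thinning and 1 to 568 with a library left out. For DPI against vehicle they were 0 as reported and 2 in DESeq2. For DPI against ND, 1 as reported, they were 22 with no filter, 219 in DESeq2, 0 with 2 groups only, 0 under the block, 4 after thinning and 1 to 572 with a library left out. At the study's threshold, the counts were 1329 as reported, 453 under the block and 1027 to 2634 with a library left out for vehicle against ND. For DPI against vehicle they were 324 as reported, 602 with no filter, 566 under the block and 187 to 544 with a library left out, and for DPI against ND 1058 as reported, 299 under the block and 830 to 2626 with a library left out. The causes were not tested.

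With a library left out (a single ND library left is assumed to vary like the other groups), log2 fold changes that turned direction ran as follows for vehicle against ND. Plin3 was between -0.40 and 0.22, Pnpla2 between -0.21 and 1.03, Lipe between -0.10 and 2.31, Mgll between -7.58 and 1.73, and Dgat1 between -0.29 and 2.33. For DPI against vehicle Pnpla2 was between -0.38 and 0.028, Abhd5 between -0.030 and 0.58, Lipa between -0.14 and 0.25, and Dgat1 between -0.21 and 0.41. For DPI against ND Pnpla2 was between -0.34 and 0.90, Lipe between -0.63 and 1.78, Mgll between -1.76 and 3.28, and Dgat1 between -0.16 and 2.46.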

Other observations

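Ratios of levels per kilobase within a library, chosen after the levels were seen and given as a description, set the members of a step side by side. Plin2 over Plin3, the main perilipins of macrophages, was 7.19 to 8.13 in the ND libraries, 15.1 to 23.2 with vehicle and 7.77 to 13.8 with DPI. No DPI library reached the vehicle range, although Plin2 and Plin3 each overlapped between DPI and vehicle libraries. The highest ratio, in vehicle replicate 3, came with the lowest Plin3 level of all libraries (67 counts). How often ratios of other genes part these groups was not counted. Dgat2 over Dgat1 was 4.00 and 20.4 in the ND libraries, 2.01 to 3.88 with vehicle and 1.25 to 2.28 with DPI. Abhd5 over Pnpla2, coactivator over lipase, was 0.0349 and 0.0514 in the ND libraries, 0.0852 to 0.146 with vehicle and 0.0893 to 0.242 with DPI. A ratio can move through either gene, and none of these was tested.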
